A study of Mus musculus with 15 samples.

Results

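Il12b encodes the p40 chain that interleukin 12 and interleukin 23 share, and macrophages switch the gene on when Toll-like receptors sense bacterial products. Its transcription is known to depend on a promoter with NF-kB and C/EBP sites and on inducible nuclease-hypersensitive enhancers upstream of the gene. Accessible chromatin was followed here in a window of 110 kb on mouse chromosome 11 (mm9 chr11:44150000-44260000), which holds Il12b at about 44.213 to 44.228 Mb on the plus strand. DNase-seq finds accessible chromatin by its ready digestion with DNase I, and the deposited lists, 1 per library, give each such stretch as a hotspot. Every hotspot that touched the window in any of the 15 lists was taken, and those with 1 bp or more in common were joined across lists into elements. The window held 108 hotspots in 21 elements, of 324185 merged regions in the whole genome. The gene start is known to 1 kb only, so every distance below carries that error, and elements are named by the distance of their midpoint from it.

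The cells were macrophages grown from the bone marrow of C57BL/6J mice and given 10 ng/ml lipopolysaccharide (LPS), a Gram-negative cell wall component that acts through Toll-like receptor 4, for 0, 3 or 8 h. Each time had 2 libraries of cells labelled Ikzf KO (called KO), 1 littermate control library and 2 wild-type (WT) libraries. Ikaros, which the title of the series names, is a DNA-binding zinc finger protein encoded by Ikzf1, and the labels give no allele, cell-type restriction or further genotype for the KO or the littermates. WT replicate 2 was digested with 100 U of DNase per its title and every other library with 80 U. Littermate and WT libraries together are called controls. The labels do not say whether replicates came from different animals. The p-values below therefore rest on the scatter among these libraries alone, and that scatter may be technical. The lists hold no gene names and no RNA, so neither macrophage markers nor the loss of Ikaros was checked here.

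Libraries differed in ways that touch every comparison below. KO lists held 111553 to 132279 hotspots and reached down to Z-scores of 3.40 to 3.66, littermate lists 52400 to 114427 and 3.65 to 4.54, and WT lists 15659 to 51834 and 7.98 to 10.6. At rank 15659, the length of the shortest list, the Z-score at 8 h was 35.6 to 40.01 in KO and 25.8 to 27.3 in controls. At 0 h it was 25.1 to 25.9 in KO and 8.83 to 11.4 in controls. Read depth is not given. Within a list, every highest tag density is a whole multiple (within 0.05) of a smallest step. If the inverse of that step gives relative depth, KO libraries lay at 0.741 to 1 and controls at 0.525 to 0.947. At 8 h these were 0.850 to 1 in KO and 0.683 to 0.712 in controls. KO lists were longer than control lists and had the higher Z-score at that rank at every time, so genotype and these library differences cannot be told apart at 0, 3 or 8 h. Hotspots were therefore compared by rank within a list, rank 1 being the highest Z-score, after lists had been shortened to equal length. A hotspot missing from a shortened list got that length plus 1.

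Values per library are given for 6 elements, the one at the gene start and those in at least 8 of the 15 lists. From 5′ to 3′ they were the -26 kb element (chr11:44185610-44187489, in 14 lists), the -21 kb element (chr11:44190897-44192347, in 12 lists) and the -9 kb element (chr11:44202936-44204480, in 13 lists). The promoter element followed (chr11:44211814-44213786, in 13 lists), then the +15 kb element (chr11:44227833-44229147, in 14 lists), which lies at the 3′ end of the gene within the 1 kb to which that end is known, and the +39 kb element (chr11:44251094-44252042, in 9 lists). The other 15 elements were in at most 6 lists each, 9 of them in a single list. All coordinates are mm9, as in the deposited lists.

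**Figure D1:**
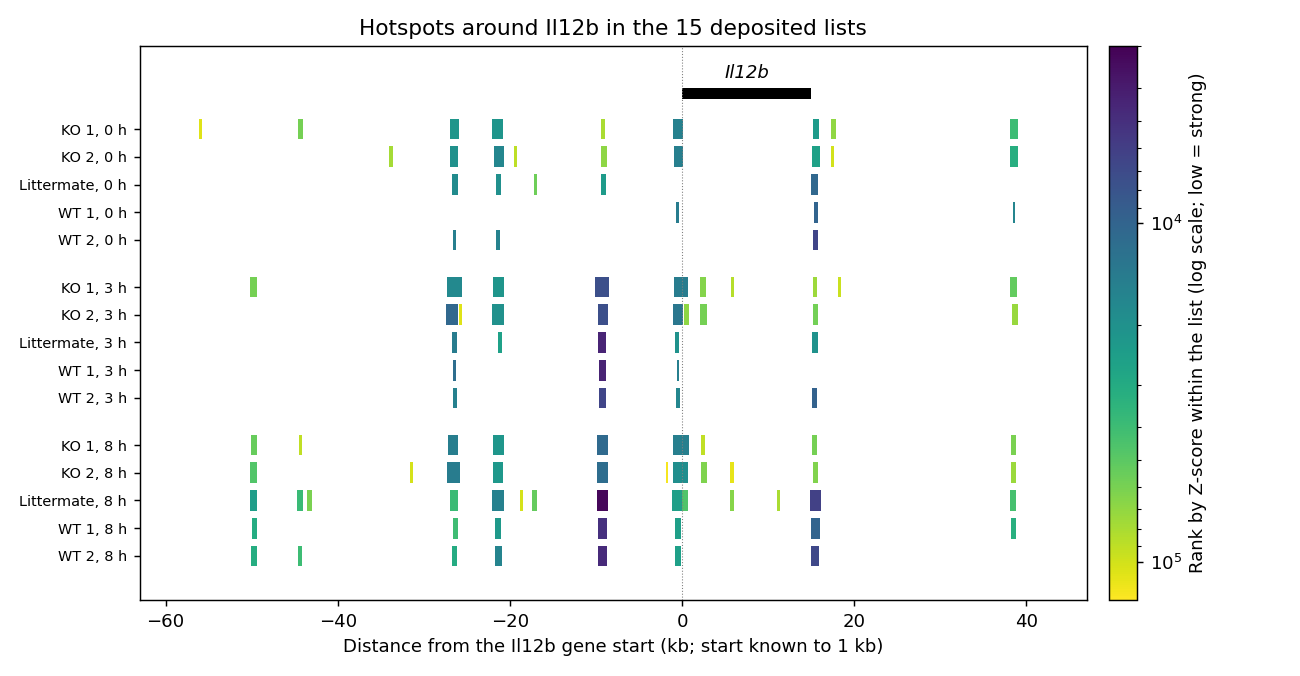
Hotspots of the 15 deposited lists by distance from the Il12b gene start (x axis, kb), 1 row per library grouped by hours of LPS (KO, littermate, WT), coloured by rank within the list on a log scale. The -9 kb element is dark in every row at 3 and 8 h. At 8 h the +15 kb element is dark in the 3 control rows and not in the KO rows. It is also dark in the control rows at 0 h (ranks 6528 to 10636) and in WT replicate 2 at 3 h.

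The promoter sequence is shown because it is the stretch around the gene start that the promoter element is named for. The hotspots were not placed on it. It is RefSeq's, 300 bases from 250 before to 50 after the annotated gene start, on the plus strand of chr11:44399813-44400112 in GRCm38.p6, a later build whose coordinates are not those of the lists. Capitals mark matches to GGGAA, the core that Ikaros and NF-kB sites can share, here read on the other strand as TTCCC, and to TTGCAA, a C/EBP-type sequence. Both motifs were chosen after the sequence was seen.
Il12b promoter: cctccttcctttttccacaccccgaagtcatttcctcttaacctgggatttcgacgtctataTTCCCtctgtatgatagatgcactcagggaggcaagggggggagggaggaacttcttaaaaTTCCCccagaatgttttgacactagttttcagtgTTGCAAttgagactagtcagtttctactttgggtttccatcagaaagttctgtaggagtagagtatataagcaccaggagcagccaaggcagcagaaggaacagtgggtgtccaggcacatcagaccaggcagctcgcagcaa
GGGAA matched on the minus strand at -188 to -184 and at -127 to -123, counted from the gene start at +1, and 62.7% of the 32851 promoters in the table hold it on either strand. TTGCAA matched at -93 to -88, and 6.23% of promoters hold it. Also searched on both strands, with no match in this window, were 6 other motifs. These were the longer Ikaros-type TGGGAA (in 25.6% of promoters), an NF-kB-type frame (50.8%), the AP-1-type TGANTCA (7.81%), the PU.1-type GAGGAAG (13.6%), TATAAA (13.6%) and the octamer-type ATGCAAA (4.63%). A match is a description of letters and not a bound site.

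The -9 kb element, upstream of the gene where inducible enhancers of Il12b are known, was the one element of the 5 tested whose ranks at 8 h did not overlap those at 0 h. At 8 h its rank was 10850 and 11403 in KO, 3212 in the littermate and 5062 and 4690 in WT. At 0 h its rank was 80939 and 68407 in KO and 23478 in the littermate, and it was in neither WT list. At equal list length all 5 libraries at 8 h held it and none of the 5 at 0 h did, and the groups did not overlap. The geometric mean rank was 6237 at 8 h and 15660 at 0 h, where every value is the limit set by the list length. The difference of mean log10 rank was -0.40 (two-sided exact permutation test over libraries, hours swapped inside a genotype, p = 0.0278, the smallest that 72 arrangements allow). Adjusted over 25715 regions by Benjamini-Hochberg, p was 0.227. Of these regions, 4.30% ranked nearer the top in every 8 h library than in every 0 h library, and 1.38% had a more negative difference than the -9 kb element. With lists of 7829 hotspots the difference was -0.16 (exact permutation p = 0.167), and in lists as deposited -0.74 (exact permutation p = 0.0278).

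The same element was already near the top at 3 h. Its rank at 3 h was 7383 and 7472 in KO, 4358 in the littermate and 4325 and 6493 in WT. Again all 5 libraries at 3 h held it at equal length and none at 0 h did. The difference of mean log10 rank against 0 h was -0.43 (exact permutation p = 0.0278, adjusted p = 0.288 over 26044 regions). Nearer the top without overlap were 2.49% of regions at 3 h, and 0.814% had a more negative difference. With lists of 7829 hotspots the difference at 3 h was -0.13 (exact permutation p = 0.0278). In all 10 lists at 3 and 8 h this element had the best Z-score of the 6, while at 0 h it was the lowest of those present in the KO and littermate lists. By highest tag density the +15 kb element came first instead in the 3 controls at 8 h and in WT replicate 2 at 3 h. No region of the genome passed an adjusted p of 0.05 in either comparison. Without adjustment, p was under 0.05 with ranks nearer the top in 7.30% of regions at 8 h and 4.72% at 3 h, and with ranks farther away in 4.95% and 4.92%. Of the elements tested only the -9 kb element had such a p at either time. The WT lists at 0 h stopped at Z-scores of 8.29 and 9.29, above the 4.52 and 5.35 that the element had in KO at 0 h.

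At 8 h the -9 kb element stood lower in KO than in controls in density and Z-score and farther from the top in Z-score rank. Its highest tag density was 24.6 and 20.6 in KO, 40.6 in the littermate and 30.8 and 38.9 in WT. The Z-score was 45.8 and 49.5 in KO, 67.6 in the littermate and 65.2 and 55.5 in WT. Both KO libraries lay below all 3 controls in density and in Z-score. The share of all regions with such a gap in density or Z-score was not counted. In lists of 48084 hotspots the difference of mean log10 rank, KO minus controls, was 0.42 (2 against 3 libraries, exact permutation p = 0.1, the smallest of 10 arrangements). Ranked by highest tag density instead, the difference was 0.46 (exact permutation p = 0.2). Of 61396 regions, 23.0% ranked farther from the top in both KO libraries than in all 3 controls, and 1.98% had a larger difference than this element.

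**Figure D2:**
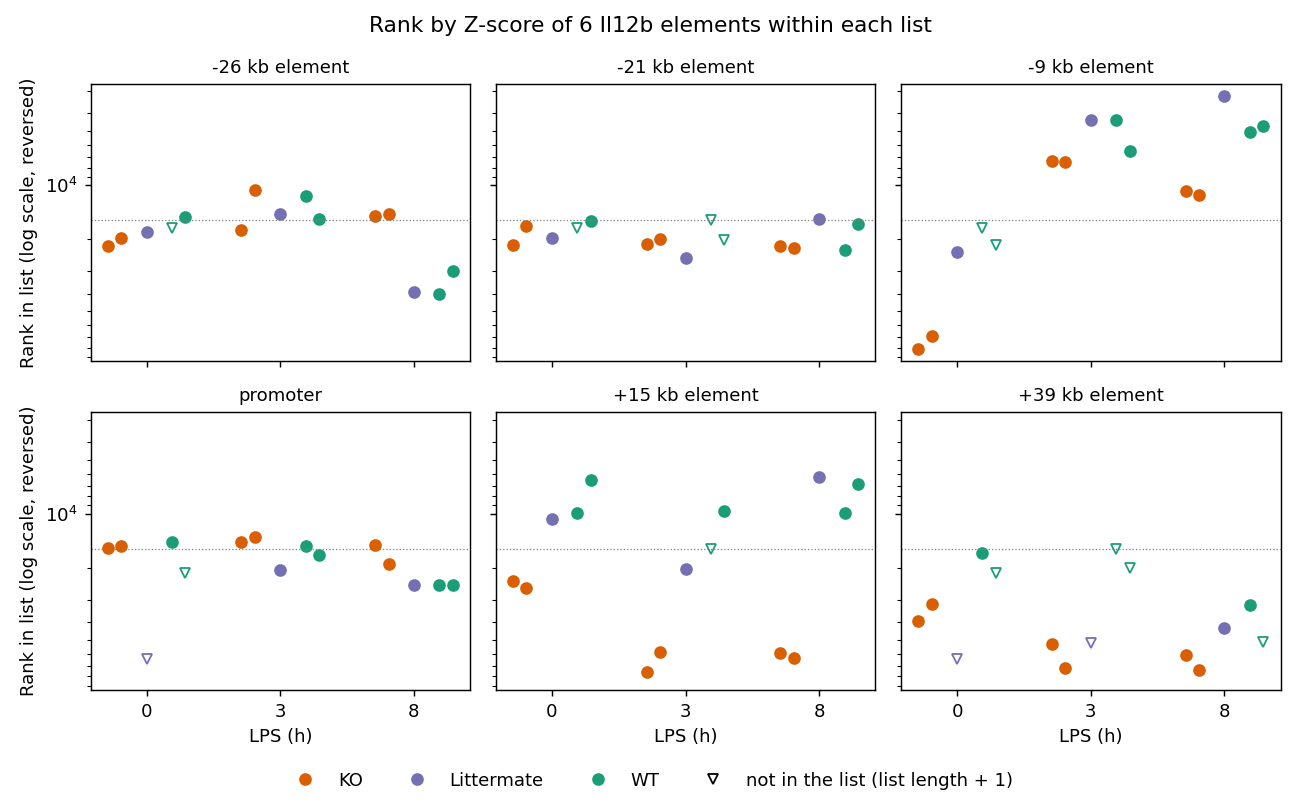
Rank by Z-score within the deposited list (y axis, log scale, reversed so that strong hotspots are high) of 6 Il12b elements against hours of LPS, 1 point per library, KO left of littermate and WT. Open triangles stand at list length plus 1 for libraries without the element, and the dotted line marks rank 15659. At 8 h the -9 kb ranks of 10850 and 11403 in KO lie below the control ranks of 3212 to 5062.

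At 3 h density and rank of the -9 kb element pointed opposite ways. The highest tag density was 24.9 and 23.5 in KO, 11.7 in the littermate and 9.27 and 10.3 in WT, so both KO libraries were above the controls. By rank both KO libraries were farther from the top than all 3 controls. The share of all regions without overlap at 3 h was not counted, by density or by rank. The Z-score at rank 15659 at 3 h was 28.5 and 28.7 in KO and 8.48 to 11.1 in controls, and its part in the difference was not tested. Over all 15 libraries the mean log10 rank of the element was 4.04 ± 0.15 in KO (SD, n = 6) and 3.84 ± 0.28 in controls (SD, n = 9). This difference of 0.20 had an exact permutation p of 0.01 (KO label permuted within each time, 1000 arrangements) and an adjusted p of 0.0481 over 27622 regions. Without any 1 of the 5 series of libraries (1 genotype and replicate number over the 3 times) no region of the genome passed the adjustment, and the adjusted p of this element was 0.165 to 0.257. Ranked by the highest tag density the adjusted p was 0.185. Libraries of 1 series may share cells, in which case the p of 0.01 may be too small. With genotype permuted over whole series (the replicate block) the exact permutation p was 0.1, the smallest possible, and the adjusted p was 0.343.

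The +15 kb element, at the 3′ end of the gene, showed the widest gap between genotypes in the window. Its highest tag density in KO was 12.4 and 13.1 before LPS, 5.32 and 5.17 after 3 h, and 6.98 and 6.17 after 8 h. In the littermate it was 8.28 at 0 h, 6.32 at 3 h and 45.6 at 8 h. In WT replicate 1 it was 9.95 at 0 h and 34.4 at 8 h, with no hotspot listed at 3 h, and in WT replicate 2 it was 13.3, 12.3 and 44.4. At 8 h every control library was therefore above 30 and both KO libraries below 7, with no overlap. The share of all regions whose densities did not overlap at 8 h was not counted. At 0 h the densities of KO and controls overlapped, while their ranks, given below, did not.

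By rank the gap at 8 h was of the same direction. Before LPS the +15 kb element ranked 23501 and 25939 in KO, 10636 in the littermate and 9914 and 6528 in WT, without overlap. Its Z-scores at 0 h did overlap, with 18.8 and 16.7 in KO, 11.9 in the littermate and 12.1 and 19.1 in WT. The rank gap at 0 h thus does not show a weaker hotspot in KO. The share of all regions whose ranks did not overlap at 0 h was not counted. At 8 h the +15 kb element ranked 59423 and 63599 in KO, 6251 in the littermate and 9935 and 6824 in WT. In lists of 48084 hotspots it was in no KO list and in all 3 control lists at 8 h, a difference in mean log10 rank of 0.81 (exact permutation p = 0.1, the smallest possible). The size is a lower limit, since the KO hotspots lay beyond that length. Of the 61396 regions tested, 23.0% ranked farther from the top in both KO libraries than in all 3 controls, and 0.112% had a larger difference. Over all times it was among the best 15659 hotspots of 0 of 6 KO lists and of 7 of 9 control lists. The mean log10 rank was 4.19 in KO, where all 6 values equal the limit, and 3.98 ± 0.15 in controls (SD, n = 9), a difference of 0.21 (exact permutation p = 0.01, adjusted p = 0.0481). Of the 5 elements tested, 2 passed, the -9 kb and +15 kb elements, both farther from the top in KO. Over all regions 7.33% passed in that direction and 13.5% passed nearer the top. With lists of 7829 hotspots neither element passed, nor did either when an element had to be covered to at least 50% (exact permutation test, adjusted p = 0.234 for the -9 kb and 0.199 for the +15 kb element). Without any 1 series the adjusted p of the +15 kb element was 0.113 to 0.257. With genotype permuted over whole series its exact permutation p was 0.1, the smallest possible, and its adjusted p was 0.343.

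**Figure D3:**
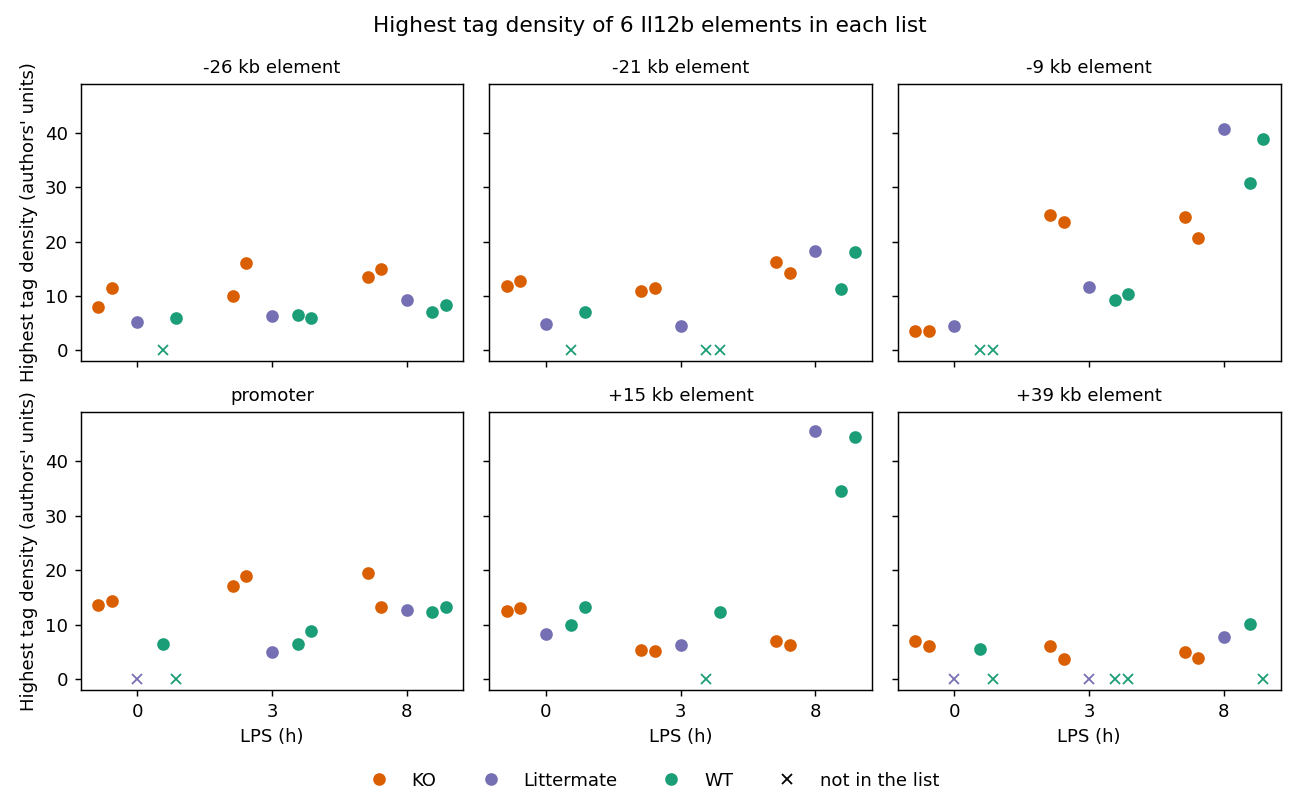
Highest tag density in the authors' units (y axis) of 6 Il12b elements against hours of LPS, 1 point per library, KO left of littermate and WT, with crosses at 0 for libraries whose list lacks the element. The 3 control libraries at 8 h reach 34.4 to 45.6 at the +15 kb element, and the 2 KO libraries reach 6.17 and 6.98.

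KO against the littermate alone could be read in longer lists of 52400 hotspots. The +15 kb element ranked farther from the top in every KO list than in every littermate list, with geometric mean ranks of 40776 in KO and 11036 in the littermate. The promoter ranked nearer the top in every KO list, with geometric mean ranks of 15278 in KO and 29931 in the littermate. The -9 kb element had geometric mean ranks of 16298 in KO and 6901 in the littermate, and these groups overlapped. Each of these 3 had an exact permutation p of 0.0370, the smallest of 27 arrangements, and an adjusted p of 0.208. Nearer the top without overlap were 9.60% of 100782 regions and farther without overlap 3.37%. No region passed the adjustment, and 12.3% nearer and 5.51% farther had an unadjusted p under 0.05.

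The promoter element was present in all 6 KO lists, and in controls mostly after LPS. Control lists at 0 h held 17237 to 64262 hotspots and KO lists 111553 and 112826. The share of all regions with such presence was not counted. The promoter's highest tag density in KO was 13.7 and 14.4 before LPS, 17.1 and 19.0 after 3 h, and 19.5 and 13.3 after 8 h. In controls it was listed at 0 h in WT replicate 1 alone, at 6.37. At 3 h it was 4.97 in the littermate and 6.51 and 8.74 in WT, and at 8 h 12.7 in the littermate and 12.4 and 13.2 in WT. KO densities were above all control densities listed at 0 and 3 h, and the lower KO library at 8 h was within 0.1 of the highest control. The share of all regions with KO densities above all controls was not counted.

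Ranks of the promoter overlapped between the genotypes at 0 h and not at 3 or 8 h. At 0 h it ranked 15436 and 15013 in KO and 14294 in WT replicate 1. It was missing at 0 h from the littermate list of 64262 hotspots and the WT replicate 2 list of 21377. At 3 h it ranked 14403 and 13392 in KO, 20537 in the littermate and 15064 and 17035 in WT, without overlap. The share of all regions without such overlap at 3 h was not counted. At 8 h the ranks were 14985 and 18985 in KO, 24917 in the littermate and 24923 and 25026 in WT, and the groups did not overlap. The difference of mean log10 rank at 8 h was -0.17 (exact permutation p = 0.1). Nearer the top in both KO libraries at 8 h were 29.7% of regions, so a gap of this kind was common. Over all 15 libraries the difference was -0.02 (exact permutation p = 0.058, adjusted p = 0.170) and did not pass. Against 0 h, promoter ranks at 8 h in lists of 15659 hotspots differed by 0.01 in mean log10 rank (exact permutation p = 0.5, adjusted p = 0.780). Of these lists 1 of 5 at 8 h and 3 of 5 at 0 h held the promoter. The others were at the limit, so this test cannot measure changes beyond that length.

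Promoter hotspots also differed in extent. In both KO libraries at 8 h the hotspot ended 775 and 754 bp past the 44.213 Mb mark, whereas in WT at 8 h it ended short of it, at -138 and -111 bp. The KO hotspots at 0 h ended 84 and 97 bp past the mark, and at 3 h 654 bp past it in replicate 1. In KO replicate 2 at 3 h a second, weaker hotspot ended 786 bp past it. The littermate at 8 h also had a second hotspot there, which ended 691 bp past it and ranked 45846. WT hotspots ended before the mark in all 5 lists that held one. These ends lie inside the 1 kb error of the gene start, so they show the order of the hotspot ends and not their place in the gene. Hotspot width also depends on the depth and cut of a list, so the part of these in the difference was not tested.

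Since tag density is scaled in an unstated way, the -9 kb and +15 kb elements were also set against the promoter of the same library, a ratio that library scaling cancels from. This comparison was chosen after the values were seen. At 8 h the -9 kb element had 1.26 and 1.55 times the promoter's highest tag density in KO, 3.21 times in the littermate and 2.49 and 2.95 times in WT. The mean log2 ratio was 0.48 ± 0.22 in KO (SD, n = 2) and 1.52 ± 0.19 in controls (SD, n = 3), a difference of -1.04 (exact permutation p = 0.1, the smallest possible). At 3 h the ratios overlapped, with 1.46 and 1.24 in KO, 2.36 in the littermate and 1.42 and 1.18 in WT.

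The +15 kb element at 8 h had 0.357 and 0.464 times the promoter's density in KO, 3.61 times in the littermate and 2.78 and 3.37 times in WT. The mean log2 ratio differed by -2.99 between KO and controls (exact permutation p = 0.1). At 3 h the ratio was 0.311 and 0.273 in KO, 1.27 in the littermate and 1.41 in WT replicate 2. At 0 h it was 0.907 and 0.911 in KO and 1.56 in WT replicate 1, where both hotspots were listed. In highest tag density the ratio was below 1 in all 6 KO libraries and above 1 in all 6 control libraries that had one. In mean tag density it was 1.03 and 1.08 in KO at 0 h. A ratio shows unequal change of the 2 elements and not which of them differed. The ratio at 8 h was also taken for the -26 kb and -21 kb elements. In highest tag density its mean log2 differed by 0.45 and -0.37 between KO and controls (exact permutation p = 0.3 for each). In mean tag density it differed by 0.60 and -0.25 (exact permutation p = 0.1 and 0.4). In Z-score it differed by 0.72 and -0.72 (exact permutation p = 0.2 and 0.1).

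**Figure D4:**
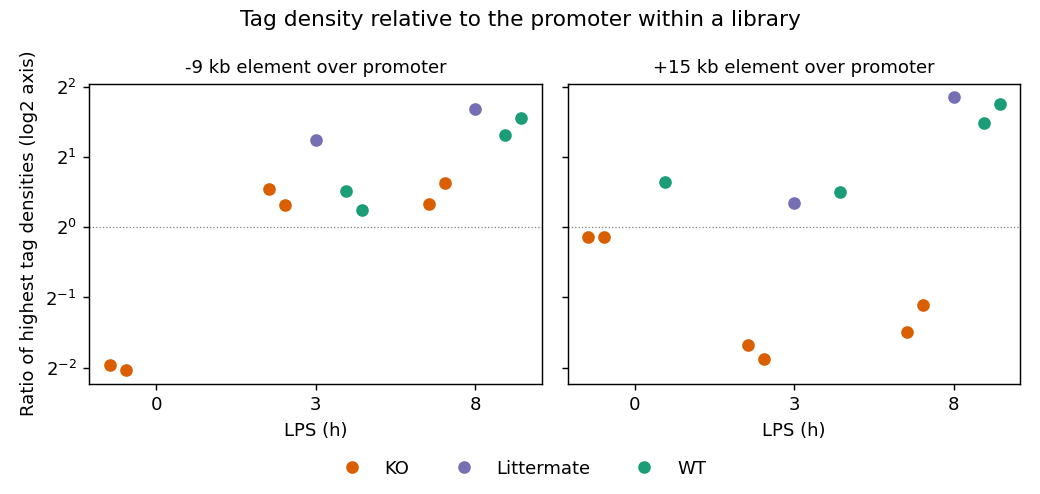
Ratio of the highest tag density of the -9 kb element (left) and the +15 kb element (right) to that of the promoter in the same library (y axis, log2 scale) against hours of LPS, 1 point per library that lists both, KO left of littermate and WT. At 8 h the +15 kb ratios are 0.357 and 0.464 in KO and 2.78 to 3.61 in controls.

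Of the 2 farther upstream elements, the -26 kb element had ranks at 8 h that did not overlap between KO and controls, and the -21 kb element had ranks that did. The -26 kb element ranked 14821 and 14414 in KO at 8 h, 39322 in the littermate and 40227 and 30043 in WT, so KO libraries were nearer the top without overlap (difference of mean log10 rank -0.39, exact permutation p = 0.1). At 8 h 29.7% of regions were nearer the top in KO without overlap, and 3.795% had a more negative difference. At 3 h its ranks overlapped, with 17759 and 10637 in KO, 14441 in the littermate and 11485 and 15493 in WT. Over all 15 libraries the difference was -0.02 (exact permutation p = 0.474, adjusted p = 0.674). Its highest tag density at 8 h was 13.4 and 14.9 in KO, 9.33 in the littermate and 7.02 and 8.33 in WT.

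The -21 kb element ranked between 15502 and 25391 in the 12 lists that held it, which differ in length. Its highest tag density rose from 0 to 8 h in each series with both values. The log2 ratio was 0.46 and 0.15 in KO, 1.90 in the littermate and 1.37 in WT replicate 2. Before LPS the density spanned 11.8 to 12.8 in KO and 4.90 to 6.99 in controls. After 8 h the spans overlapped, 14.2 to 16.2 in KO and 11.4 to 18.3 in controls. The difference in density change was not tested. At 8 h the element ranked 21879 and 22233 in KO, 15502 in the littermate and 22859 and 16515 in WT, and these groups overlapped (difference 0.09, exact permutation p = 0.4). It was missing from WT replicate 1 at 0 h and from both WT lists at 3 h, which are among the shortest lists. The +39 kb element, downstream of the gene, was in all 6 KO lists, in 1 littermate list and in 2 WT lists. The share of all regions with such counts was not taken. WT lists ended at Z-scores of 7.98 to 10.6, and the element had Z-scores of 5.32 to 13.9 in KO. Its density was 3.73 to 7.002 in KO, 7.66 in the littermate at 8 h, and 5.57 at 0 h and 10.03 at 8 h in WT replicate 1. It was in no list shortened to 15659 hotspots. In longer lists its mean log10 rank differed by -0.03 between KO and littermate (exact permutation p = 0.778). Between KO and controls at 8 h it differed by 0.07 (exact permutation p = 0.4), the element being in 0 of 2 KO and 2 of 3 control lists of 48084 hotspots.

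**Figure D5:**
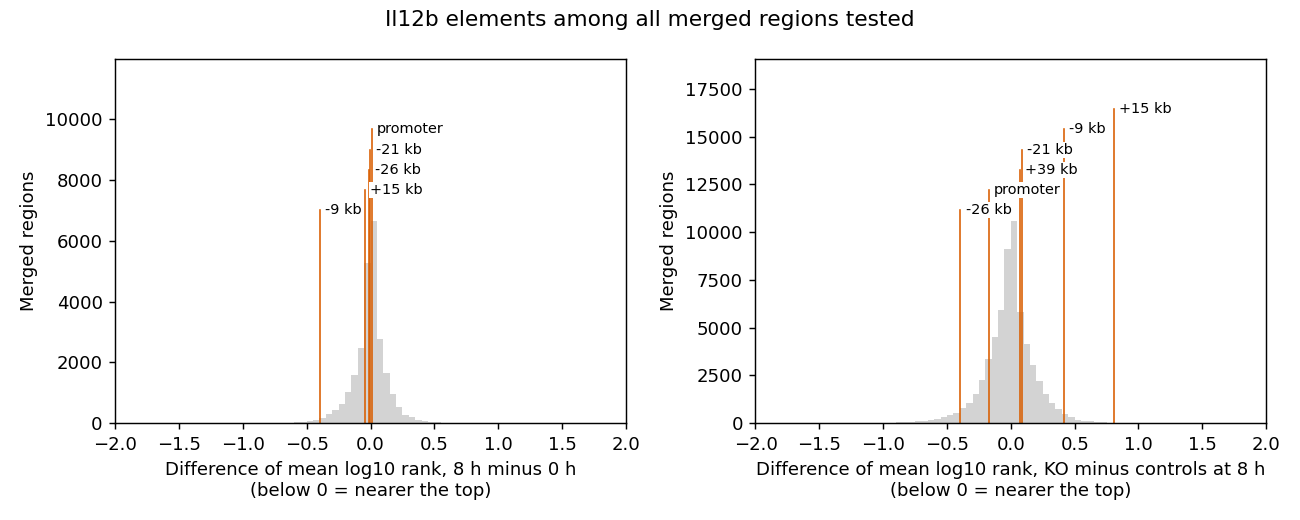
Histograms of the difference in mean log10 rank over all merged regions tested (x axis, below 0 means nearer the top; y axis, number of regions), for 8 h minus 0 h in lists of 15659 hotspots (left) and KO minus controls at 8 h in lists of 48084 (right). Lines mark the Il12b elements, with the -9 kb element at -0.40 on the left and the +15 kb element at 0.81 on the right.

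Whether LPS moved the elements differently in the genotypes was tested on the change from 0 to 8 h in each series, that is, in the libraries of 1 genotype and replicate number. The labels do not tie such libraries to 1 animal or culture. For the -9 kb element the change in log10 rank was -0.16 and -0.14 in KO, -0.69 in the littermate and -0.49 and -0.52 in WT. The mean change was smaller in KO by 0.42 (exact permutation of genotype over 5 series, p = 0.1, the smallest of 10 arrangements, adjusted p = 0.396). Every value at 0 h was the limit, so this repeats the difference at 8 h and cannot measure the change from 0 h. In the lists as deposited the difference in mean change had the opposite sign (-0.14, exact permutation p = 0.4). There, WT lists without the element at 0 h ended at 17237 and 21377 hotspots. Its Z-score at 8 h over that at 0 h was a log2 ratio of 3.34 and 3.21 in KO and 3.24 in the littermate. For its highest tag density this was 2.81 and 2.55 in KO and 3.17 in the littermate, and WT had no value at 0 h. For the +15 kb element the change at equal length was 0 in both KO series, where every value is the limit, -0.23 in the littermate and 0.0009 and 0.02 in WT. The difference was 0.07 (exact permutation p = 1) and 0.47 in the lists as deposited (p = 0.1 by the same exact test).

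Over the whole window, hotspots in equally long lists covered 2986 ± 1027 bp at 8 h (SD, n = 5) and 968 ± 176 bp at 0 h (SD, n = 5). Every library at 8 h covered more than every library at 0 h (exact permutation p = 0.0278, adjusted p = 0.0973 over windows), as did 6.18% of 10051 windows of the same length. At 3 h 2332 ± 1036 bp were covered (SD, n = 5), again without overlap with 0 h (exact permutation p = 0.0278, adjusted p = 0.231), against 0.866% of windows. KO libraries covered 2664 ± 1338 bp (SD, n = 6) and controls 1716 ± 938 bp (SD, n = 9), a difference of 948.0 bp (exact permutation p = 0.022, adjusted p = 0.0341). That test was passed by 66.7% of all windows, with a median difference of 1153 bp, and 57.0% of windows had a larger difference than this one. The sign turned with lists of 7829 hotspots (-506.8 bp).

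Among the 15 minor elements the best rank in any list was 24367, and the highest tag density was 9.03. The -50 kb element (chr11:44162762-44163682) was in all 5 lists at 8 h, in 1 KO list at 3 h and in none at 0 h. At 8 h its density was 4.74 and 5.22 in KO, 8.99 in the littermate and 9.03 and 7.29 in WT, higher in each control. The share of all regions with a higher density in each control was not counted. The +3 kb element (chr11:44215105-44215928), inside the gene, was in both KO lists at 3 h and both at 8 h and in no control list, with densities of 4.02 to 4.48 and ranks of 59555 to 90485. WT lists and 2 of the 3 littermate lists end before the last of these ranks. Of the minor elements 8 were in KO lists alone and 4 in littermate lists alone. The share of all merged regions in lists of 1 genotype alone was not counted. KO and littermate lists reach lower Z-scores than WT lists, so these counts show nothing particular to this window.

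The regions elsewhere whose ranks over the 15 libraries were most like those of the promoter were given by position, since no mm9 annotation was used here. They were chr7:39011307-39013830 (Pearson r of log10 rank 0.883), chr5:31904269-31905667 (0.882) and chr12:25873285-25876118 (0.850), out of 17405 regions in at least 5 shortened lists. All share the libraries and their cuts, and the median r over those regions was -0.01.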

How the data were processed

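Each library has its own deposited hotspot list. The submitters' processing notes name mm9 and CASAVA. Aligner, caller and calling threshold: not given in the sources used here. The authors' tag density, highest or mean over a hotspot, is a signal whose scaling is unstated. The authors' Z-score is a score per hotspot, per the file headers, and a deposited p-value beside it was not used. Density and Z-score served to describe and rank hotspots within a list. Depth is unknown, so no interval for it can be given. Whether coordinates count from 0 or 1 is not stated.

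Regions are hotspots of the 15 lists joined where they had 1 bp or more in common, and an element took the best rank of its hotspots in a list. Lists were shortened to 15659 hotspots by Z-score, to 52400 for KO against littermate and to 48084 at 8 h. Regions in at least 1 shortened list entered an exact permutation test over libraries, two-sided, in Python 3.11.15 with NumPy 2.4.6, with Benjamini-Hochberg adjustment over all regions tested at a threshold of 0.05. The permutation code was tested on simulated data. Windows of the same length were tiled over the genome as background for covered length. Values per library are given for the element at the gene start (within 1 kb) and for elements in at least 8 lists. The regions named as most like the promoter are the 3 with the highest Pearson r. The members, elements and lists were chosen with earlier results of these data known. Alternatives were lists shortened to 50% of the length used (7829 hotspots for the shortest), lists as deposited, ranking by highest tag density, 50% of an element covered, rank in place of its log10, each series left out, and a replicate block.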

Additional observations from a re-analysis of the deposited data

Results flagged for a closer look

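The +15 kb element at the 3′ end of Il12b had opposite signs of change with LPS in the genotypes by deposited density and Z-score. It did not by rank at equal list length, where both KO series were at the limit. Its highest tag density at 8 h over that at 0 h was a log2 ratio of -0.83 and -1.09 in KO, 2.46 in the littermate and 1.79 and 1.75 in WT, a difference of -2.96 between the means. For the Z-score the log2 ratios were -1.16 and -1.02 in KO, 2.06 in the littermate and 1.71 and 1.24 in WT, a difference of -2.76. By these deposited values both KO series were lower at 8 h than at 0 h and all 3 control series higher. By rank at equal list length the change in log10 rank was 0 in both KO series, at the limit, -0.23 in the littermate and 0.0009 and 0.02 in WT. The WT ranks were 9935 at 8 h and 9914 at 0 h in replicate 1, and 6824 at 8 h and 6528 at 0 h in replicate 2. The difference in rank change, KO minus controls, was 0.07 (exact permutation p = 1). The difference in the log2 ratios was not tested, and densities of different libraries are scaled in an unstated way. In both genotypes the Z-score at rank 15659 was higher at 8 h than at 0 h, with 35.6 to 40.01 at 8 h and 25.1 to 25.9 at 0 h in KO, and 25.8 to 27.3 at 8 h and 8.83 to 11.4 at 0 h in controls.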

How the results depend on the processing

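All differences here are in mean log10 rank unless bp is given, and the cause of a change was not tested unless stated. For KO against controls, 2 elements passed the adjusted test, against 0 with lists of 7829 hotspots, 1 ranked by highest tag density (+15 kb), 1 with at least 50% of the element covered (the promoter, both others being lost), 0 without any 1 series (lowest and highest 0) and 0 with the replicate block. Leaving out a series or using the block raises the smallest possible p to between 0.00925926 and 0.1, and no region of the genome then passed. The covered length in that comparison was 948.0 bp more in KO; it turned to -506.8 bp with 7829 hotspots and -336.8 bp by highest tag density, stayed 948.0 bp with the replicate block (exact permutation p = 0.1), and was 742 to 1154 bp without 1 series. Deviations of same-numbered libraries correlated at 0.51 to 0.60 between times in WT, where the number also marks the DNase units, and at -0.07 to 0.23 in KO. The numbers were therefore not taken to pair libraries in all groups, although the LPS effect per series uses them. The replicate block changed no other call.

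Signs turned in 19 single-element results, none past the threshold. For 8 h against 0 h in lists as deposited these were -26 kb (0.14), -21 kb (0.033), promoter (-0.0025) and +15 kb (0.12); leaving out 1 series gave -0.057 to 0.0050 for +15 kb. For KO against controls these were -26 kb (0.015) and promoter (0.011) by highest tag density, and -26 kb without 1 series (-0.047 to 0.013). For KO against littermate these were +39 kb as deposited (0.0012) and by highest tag density (0.0096), -26 kb by highest tag density (0.057), and -21 kb at 50% covered (-0.23) and without 1 series (-0.0053 to 0.036). For the LPS effect these were -9 kb (-0.14) and promoter (0.078) as deposited, promoter at 50% covered (0.0027) and without 1 series (-0.026 to 0.0051), and +15 kb without 1 series (-0.010 to 0.11). The promoter passed in KO against controls as deposited (-0.17) and at 50% covered (-0.02), nearer the top in KO both times, where 281587 of 324185 regions as deposited and 7363 of 25407 at 50% covered also passed in either direction. Sequencing depth is unknown, and WT lists stop at higher Z-scores, so absence from a WT list does not show absence of a hotspot.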
